A study of Mus musculus with 2 samples.

Results

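Small leucine-rich proteoglycans and matricellular genes of the mouse heart were described here as 10 genes of the extracellular matrix: Dcn, Bgn, Lum, Fmod, Ogn, Prelp, Sparc, Sparcl1, Fn1 and Postn. They were chosen by name from the 55536 genes counted, by a rule that did not use their values, and all 10 were found. Earlier results of these data were known at that time. The samples were hearts of 2 B6CASTF1/J mice, males of an F1 hybrid strain aged 25 days, with no treatment named and no other tissue or age to compare them with. Replicate 1 came from animal 3 of a tissue bank and replicate 2 from animal 4, and the labels give both the same donor identifier. Each animal gave 1 library of total RNA, with spike-in RNAs added, from 300 ng of RNA. How reads from the CAST-derived alleles of this hybrid were handled is not given in the sources used here.

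Small leucine-rich proteoglycans are secreted proteins with a curved repeat domain that bind collagen fibrils and regulate their thickness and spacing. Many carry chondroitin, dermatan or keratan sulfate chains. Matricellular proteins are secreted into the matrix and act mainly on cell adhesion and signalling rather than as scaffold. In the heart, fibroblasts are a main source of the proteoglycans and of periostin, while fibronectin, SPARC and SPARC-like 1 also come from vascular and other cells.

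Of the 10 genes, 8 differed by 1.14-fold or less between the hearts, Fmod by 1.28-fold and Fn1 by 2.65-fold. Fn1, which encodes fibronectin, an adhesive glycoprotein that links integrins to collagen, stood at 80.27 TPM in replicate 1 and 31.35 TPM in replicate 2. TPM is transcript abundance after division by transcript length and scaling to a common total, so that levels can be compared between genes. Over the 10 genes the median of the mean level was 42.7 TPM (45.5 in replicate 1 and 31.0 in replicate 2). Values come from tables made by alignment to annotated transcripts, called the first quantification, unless the second is named, which was made straight from the reads. All 10 exceeded a mean of 1 CPM (counts scaled to a common total), the minimum for a comparison between hearts, as did 12913 genes in all.

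The libraries held 38253821 and 40655101 estimated gene counts in replicates 1 and 2, and spike-ins held 0.505% and 0.577% of all counts. All 7 heart muscle genes examined (Myh6, Actc1, Tnnt2, Tnni3, Ryr2, Actn2 and Myl2) were detected, with a median of 3398 TPM. Of 6 cartilage genes, a tissue rich in Fmod and Prelp, none reached 1 TPM in both hearts (median 0.11 TPM). Of 5 liver genes, a main source of plasma fibronectin, 3 were at 0 in both hearts. Alb, the albumin gene that defines liver cells, was among those 3.

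Sparc (ENSMUSG00000018593.13, mm10 chromosome 11, 55394500 to 55423183), which encodes a collagen-binding matricellular protein, had the highest level of the 10. It measured 267.77 TPM in replicate 1 and 280.74 in replicate 2, or 274 ± 9.17 (SD, n = 2), and ranked 195 by mean TPM among 22028 protein-coding genes. Dcn, the decorin gene, followed at 143 ± 9.98 and ranked 360. Bgn (76.0 ± 0.318), Sparcl1 (65.5 ± 4.06) and Fn1 (55.8 ± 34.6) formed the middle of the order. Ogn (29.5 ± 1.51), Lum (19.5 ± 0.594), Prelp (11.1 ± 0.304), Postn (10.1 ± 0.0212) and Fmod (4.92 ± 0.849) were lower. The order of the other 9 genes was the same in both hearts. Fn1 ranked 3 of 10 in replicate 1, above Bgn and Sparcl1, and 5 of 10 in replicate 2, below both. Between neighbours by mean level, the ranges over the hearts overlapped for 1 pair, Sparcl1 and Fn1.

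**Figure D1:**
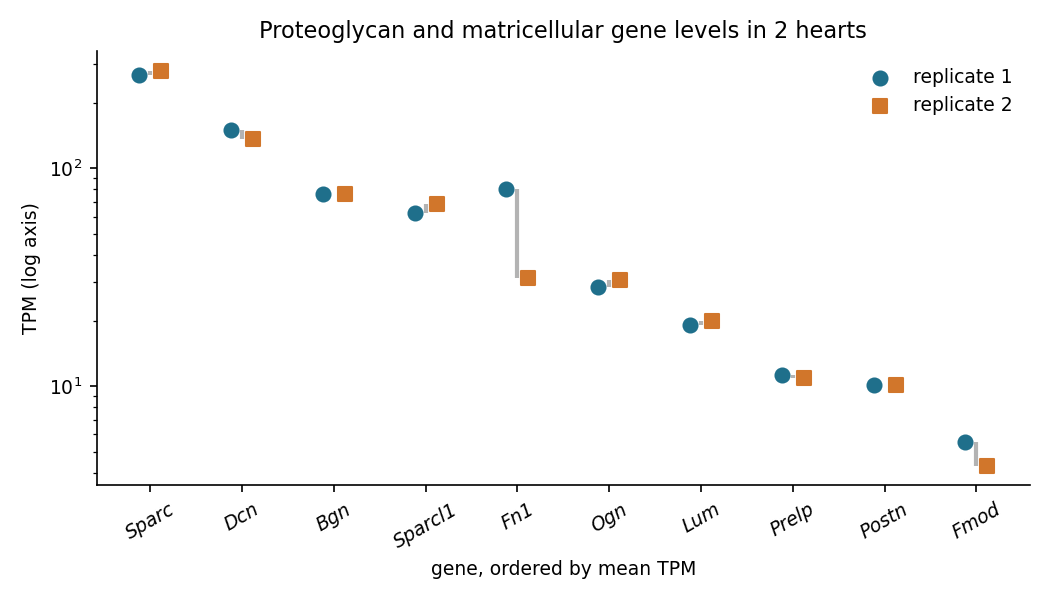
Level of each gene in TPM on a log axis, with 1 point per heart (circle for replicate 1, square for replicate 2) joined by a grey line, ordered by mean. The points nearly coincide for 8 genes, are 5.52 and 4.32 TPM for Fmod, and lie at 80.27 and 31.35 TPM for Fn1.

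The differences between hearts were measured on estimated counts scaled by TMM factors, which equalise the bulk of genes, as log2 of replicate 2 over replicate 1. Each carries an exact binomial 95% interval that covers counting error only, since the library of each animal has no replicate. An exact two-sided test by sign flips over 2 hearts has a smallest possible p of 0.5. No test is therefore given, and what follows describes these 2 animals. The median log2 ratio of the 10 genes was -0.01, beside 0.00 over all 12913 genes (quartiles -0.12 and 0.12). A gene was counted as different where the higher level exceeded the lower by 25% or more. By that rule 2 of the 10 genes were lower in replicate 2, against 8.43% of all genes, and 0 were higher, against 6.63%. At 2-fold or more, 1 of the 10 was lower, against 0.906% of all genes, and 0 were higher, against 0.302%. The share of such 25% differences that lay on the higher side was 44.0% with TMM scaling, 58.0% with total counts and 15.2% with spike-in counts, so the direction of small differences rests on the scaling. With spike-ins the median of all genes moved to -0.13 and all 10 genes had ratios below 0.

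**Figure D2:**
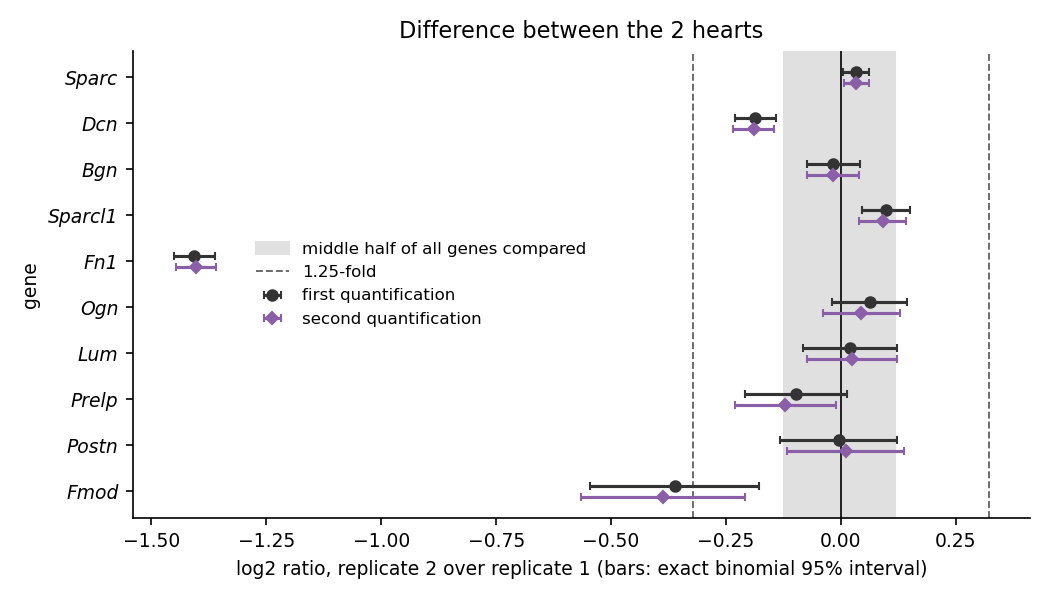
Log2 ratio of replicate 2 over replicate 1 for each gene, with exact binomial 95% intervals, in the first (circles) and the second (diamonds) quantification. The grey band runs from -0.12 to 0.12, the quartiles of all genes compared, and dashed lines mark a 25% difference. Fn1 lies at -1.41, Fmod at -0.36 and Dcn at -0.19, and the other 7 genes lie between -0.10 and 0.10, all in the first quantification.

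Among the proteoglycans, Dcn (ENSMUSG00000019929.16, chromosome 10, 97479609 to 97518143) encodes decorin, which carries 1 chondroitin or dermatan sulfate chain and binds collagen and TGF-beta. It measured 150.36 TPM in replicate 1 and 136.25 in replicate 2, from 8123 and 7899 counts. Its log2 ratio was -0.19 (95% interval -0.23 to -0.14), below the lower quartile of all genes and short of a 25% difference. Scaled by spike-ins it was -0.32 and just reached one. Bgn (ENSMUSG00000031375.17, chromosome X, 73483602 to 73495933) encodes biglycan, the close relative of decorin with a pair of such chains, and measured 75.76 and 76.21 TPM in replicates 1 and 2. Its log2 ratio of -0.02 had an interval that spans 0 (-0.07 to 0.04). Decorin transcripts were therefore 1.98 times as abundant as biglycan transcripts in replicate 1 and 1.79 times in replicate 2.

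Lum (ENSMUSG00000036446.5, chromosome 10, 97565128 to 97572703) and Fmod (ENSMUSG00000041559.7, chromosome 1, 134037254 to 134048277) encode lumican and fibromodulin, keratan sulfate proteoglycans that share a binding region on collagen. Lum measured 19.06 TPM in replicate 1 and 19.90 in replicate 2, for a log2 ratio of 0.02 (-0.08 to 0.12). Fmod measured 5.52 TPM in replicate 1 and 4.32 in replicate 2, from 533 and 459 counts. Its ratio was -0.36 (-0.54 to -0.18), 1.28-fold lower in replicate 2, and -0.39 in the second quantification. With counts scaled by library totals, the Fmod ratio was -0.30, or 1.23-fold, and no longer differed by 25%. With 1 added to each TPM it was -0.29, also short of 25%. Lum was 3.45 times Fmod in replicate 1 and 4.61 times Fmod in replicate 2.

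Prelp (ENSMUSG00000041577.5, chromosome 1, 133910304 to 133921414), whose product links basement membranes to connective tissue, measured 11.30 and 10.87 TPM, with a ratio of -0.10 (-0.21 to 0.01). Ogn (ENSMUSG00000021390.6, chromosome 13, 49608046 to 49624501), which encodes osteoglycin, also called mimecan, measured 28.45 and 30.58 TPM, with a ratio of 0.06 (-0.02 to 0.14). Both intervals span 0. In the second quantification the Prelp ratio was -0.12, with an interval below 0 (-0.23 to -0.01), and that of Ogn still spanned 0 (-0.04 to 0.13). Ogn was 1.49 times Lum in replicate 1 and 1.54 times Lum in replicate 2, the steadiest of the 10 pairs of genes compared within a heart.

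In the glycoprotein group, the Sparc ratio was 0.03 (0.0034 to 0.06), from 17978 and 20347 counts, the largest counts of the 10 genes. Sparcl1 (ENSMUSG00000029309.7, chromosome 5, 104079111 to 104113733), the SPARC-like protein also called hevin, measured 62.58 TPM in replicate 1 and 68.32 in replicate 2. Its ratio of 0.10 (0.05 to 0.15) was above 0 beyond counting error and below the upper quartile of all genes. Sparc was 4.28 and 4.11 times Sparcl1 in replicates 1 and 2. Postn (ENSMUSG00000027750.16, chromosome 3, 54361109 to 54391037), which encodes periostin, a protein abundant in the developing heart and in its response to injury, measured 10.10 and 10.07 TPM. Its ratio was -0.01 (-0.13 to 0.12). Over all 10 genes in the first quantification, intervals lay below 0 for 3 (Fn1, Fmod and Dcn), above 0 for 2 (Sparcl1 and Sparc) and spanned 0 for 5.

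Fn1 (ENSMUSG00000026193.15, chromosome 1, 71585520 to 71653200, minus strand) had 13604 counts in replicate 1 and 5679 in replicate 2. Its log2 ratio was -1.41 (-1.45 to -1.36), so that Fn1 was 2.65-fold higher in replicate 1. The second quantification gave 95.8 and 37.2 TPM and a ratio of -1.40, and over all alternatives the fold stayed between 2.51 and 2.92. The SD of Fn1 was 62.0% of its mean, while those of the other 9 genes ran from 0.21% (Postn) to 17.2% (Fmod). Fn1 was 7.95 times Postn in replicate 1 and 3.11 times Postn in replicate 2. Of all genes compared, 54 (0.418%) had a ratio as low as that of Fn1 or lower. Among these 54, 2 had a mean TPM at or above that of Fn1, the fat cell genes Cfd (174.47 and 22.12 TPM) and Car3 (127.53 and 22.86 TPM). In whole tissue, fewer cells of a type and less RNA per cell cannot be told apart.

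Several lists of markers of other cell types had medians below 0, the direction of Fn1. The 5 adipocyte genes summed to 221 TPM in replicate 1 and 31.4 in replicate 2. All 4 that passed the count minimum were 2-fold or more lower in replicate 2 (median ratio -2.70), against 0.906% of all genes. The 5 erythroid genes had a median ratio of -1.02, with 5 of 5 below 0 and sums of 46562 and 23411 TPM. The 5 platelet genes, from cells that store fibronectin, summed to 34.9 and 21.1 TPM, and 3 of 3 past the minimum were below 0 (median -0.98). Of the 5 Schwann cell genes, 3 of 3 past the minimum were below 0 (median -0.54), with sums of 12.1 and 5.17 TPM. The 6 macrophage genes had a median of -0.20, with 5 of 6 below 0 and sums of 139 and 96.3 TPM. Lyz2, the lysozyme gene, went from 83.06 to 42.39 TPM in that list, while Csf1r, the receptor that defines macrophages, was at 14.60 and 14.26.

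A list of 11 genes of the macrophages of body cavities, among them the pericardial one, was added after the values had been seen. It summed to 80.5 TPM in replicate 1 and 47.1 in replicate 2. Of its 10 genes past the minimum, 9 had ratios below 0 (median -1.21). Of those 10, 5 were 2-fold or more lower, against 0.906% of all genes. Prg4, which encodes the lubricant lubricin, measured 19.48 and 3.84 TPM, and Alox15, a lipoxygenase, 10.59 and 1.70. Gata6, the factor that defines these cells and that heart muscle also expresses, measured 29.99 and 26.93 TPM.

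Lists for other cells of the heart had medians from -0.25 to 0.22. The median was 0.04 for the 7 heart muscle genes, 0.08 for 6 endothelial genes and 0.00 for 8 pericyte and smooth muscle genes. Of the 8 fibroblast genes, 7 were below 0 (median -0.10) and 1 was lower by the 25% rule, against 8.43% of all genes. Their sums were 493 and 448 TPM. Gsn made up most of those sums, at 354.42 and 307.5 TPM, while Col15a1 went the other way, from 41.19 to 47.19. The 7 genes of activated fibroblasts had a median of 0.22 over the 6 that passed, with 5 above 0 and sums of 72.9 and 98.8 TPM. Acta2 made up most of those sums, at 64.42 and 89.3 TPM, and no other gene of that list exceeded 2.78 TPM. The 6 epicardial genes, with 5 of 6 below 0, had a median of -0.25 and sums of 38.7 and 32.7 TPM. The 6 valve and tendon genes summed to 7.62 and 6.61 TPM, with a median of -0.12 over the 4 that passed. The part of any of these cell types in the Fn1 ratio was not tested.

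**Figure D3:**
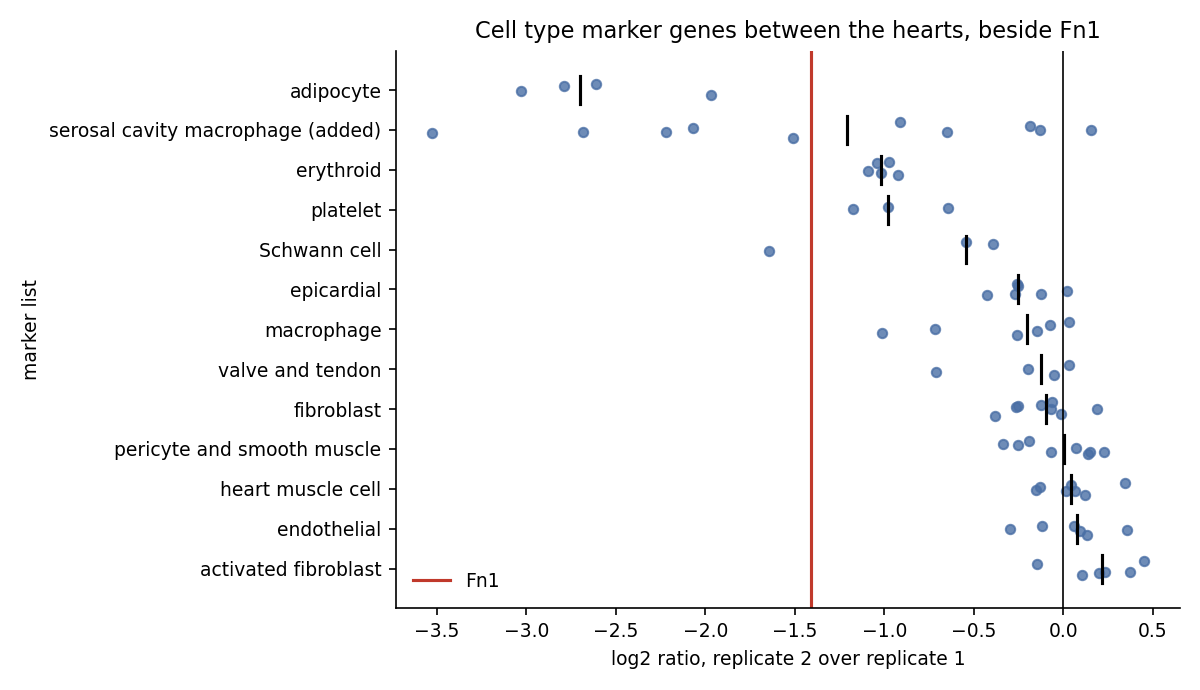
Log2 ratio of replicate 2 over replicate 1 for each marker gene past the count minimum, by list, with the list median as a black bar and the Fn1 ratio of -1.41 as a red line. The adipocyte median is -2.70, the erythroid one -1.02 and the heart muscle one 0.04, and the list marked as added was chosen after the values were seen.

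Fibronectin transcripts are spliced at 3 places, the extra domains EDB and EDA and the variable region V, and the mix differs between the plasma form made in liver, which lacks both extra domains, and the forms that cells deposit locally. The sequences of exons that set these forms are shown because the hearts differed in the estimated share of Fn1 transcript with EDB and with EDA. The upstream V segment is shown beside them, though its share moved more between quantifications than between hearts. They are given 5′ to 3′ on the sense strand, from the GENCODE M21 transcripts on mm10. Capitals mark the alternative segment and the 12 lower-case bases on each side belong to the neighbouring segments of the spliced transcript. EDB, at chr1:71613763-71614035, is exon 25 of the 46 exons of the longest transcript, Fn1-201. EDA, at chr1:71603660-71603929, is exon 33. The upstream segment of V, at chr1:71597673-71597747, is the start of exon 40. Its bases 57 to 65 encode Leu-Asp-Val, the motif by which the V region binds integrin alpha 4 beta 1, found by translating the longest reading frame of Fn1-201.
Fn1 EDB: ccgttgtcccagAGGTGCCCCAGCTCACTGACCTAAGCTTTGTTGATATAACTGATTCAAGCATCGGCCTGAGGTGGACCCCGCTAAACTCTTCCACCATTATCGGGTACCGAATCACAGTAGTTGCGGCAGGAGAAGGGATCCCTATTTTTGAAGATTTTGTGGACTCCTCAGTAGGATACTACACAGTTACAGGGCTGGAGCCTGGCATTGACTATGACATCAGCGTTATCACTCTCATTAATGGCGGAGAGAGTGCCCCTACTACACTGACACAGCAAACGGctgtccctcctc
Fn1 EDA: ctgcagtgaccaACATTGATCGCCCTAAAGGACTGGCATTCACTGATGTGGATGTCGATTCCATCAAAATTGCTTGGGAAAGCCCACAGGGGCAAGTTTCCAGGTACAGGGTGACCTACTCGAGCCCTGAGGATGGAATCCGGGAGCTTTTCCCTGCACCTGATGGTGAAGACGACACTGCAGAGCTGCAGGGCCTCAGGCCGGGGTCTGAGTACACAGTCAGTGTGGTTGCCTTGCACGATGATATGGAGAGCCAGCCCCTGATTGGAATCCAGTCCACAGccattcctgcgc
Fn1 V, upstream segment: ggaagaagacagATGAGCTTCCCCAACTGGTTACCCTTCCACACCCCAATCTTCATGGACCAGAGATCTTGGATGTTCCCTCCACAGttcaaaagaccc

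The EDB, EDA and upstream V segments are 273, 270 and 75 bases long. These lengths equal 91, 90 and 25 codons, so that including or skipping the segments keeps the reading frame. The arginine-glycine-aspartate motif of the main integrin site lies elsewhere, in exon 30 of Fn1-201, and the same 3 residues also occur in the downstream segment of V. GENCODE lists 17 transcripts of Fn1, of which 7 are full-length coding transcripts that differ at these places. Those 7 summed to 48.97 TPM in replicate 1 and 18.57 in replicate 2. Reads from the exons they share are divided among them by estimation, so the shares below are estimates with no counting interval. Folds between hearts for these transcripts are ratios of TPM, while the 2.65-fold difference of the gene came from TMM-scaled counts.

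The level assigned to EDB-containing transcript was the same in both hearts, while the rest of full-length Fn1 was not. EDB is annotated in 1 of the 7 transcripts, Fn1-201, which had 1.42 TPM in replicate 1 and 1.41 in replicate 2, from 382 and 408 estimated counts. Full-length transcripts without EDB measured 47.55 and 17.16 TPM, a 2.77-fold difference. The share with EDB was therefore 2.90% in replicate 1 and 7.59% in replicate 2. In the second quantification the EDB-containing level was 1.12 and 1.09 TPM and the share 1.96% and 4.75%.

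EDA-containing transcripts went the other way in share. They measured 14.21 TPM in replicate 1 and 4.19 in replicate 2, a 3.39-fold difference, against 2.42-fold for transcripts without EDA. The EDA share was 29.0% and 22.6%, and in the second quantification 28.6% and 21.6%. Of the EDA level in replicate 1, 12.79 TPM was assigned to Fn1-214, which holds EDA and the whole V region and lacks EDB, and which had 2.78 TPM in replicate 2. The second quantification gave Fn1-214 14.1 and 0.143 TPM. It also gave 1.02 and 3.65 TPM to Fn1-211, another transcript with EDA, which was at 0 in both hearts in the first, so the split among EDA transcripts is uncertain. The upstream V segment was held by 47.8% of full-length transcript in replicate 1 and 51.9% in replicate 2, and the downstream segment by 74.9% and 79.1%. In the second quantification these shares were 62.3% and 67.9% for the upstream segment and 92.5% and 93.5% for the downstream one. The V shares thus moved more between quantifications than between hearts. All 4 segments kept their order of hearts in both.

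**Figure D4:**
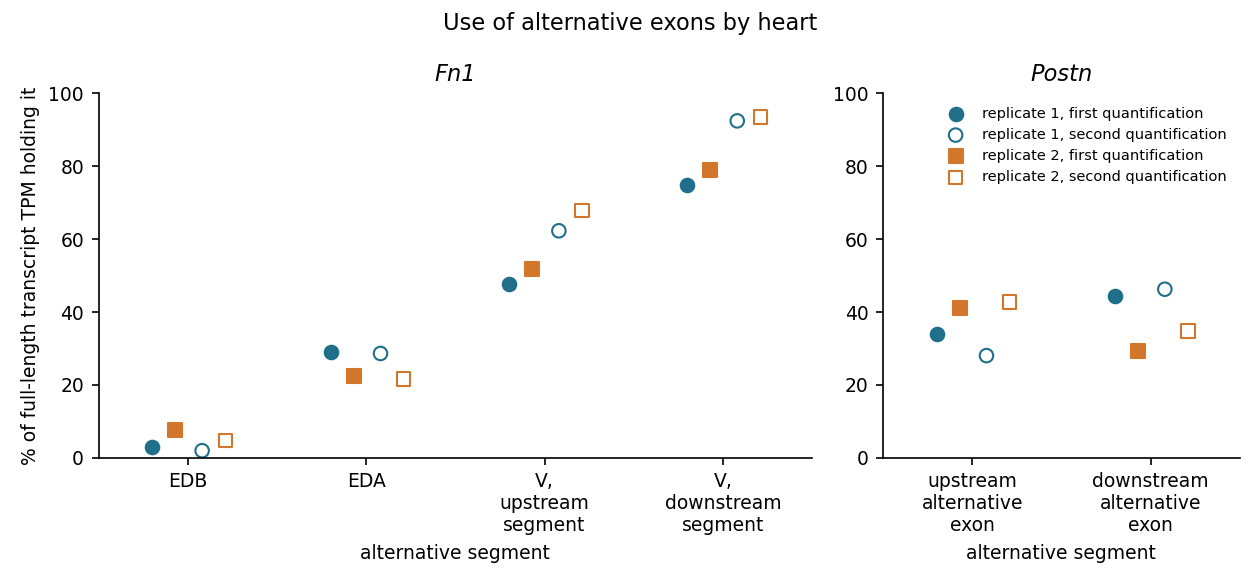
Percent of full-length transcript TPM that holds each alternative segment of Fn1 and of Postn, with circles for replicate 1 and squares for replicate 2, filled for the first quantification and open for the second. EDB lies at 2.90% and 7.59% and EDA at 29.0% and 22.6% in replicates 1 and 2 of the first quantification.

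Postn is spliced as well, within the tail that follows its fasciclin domains. The sequences of its alternative exons are shown because the estimated shares holding them differed between hearts while the level of the gene was nearly equal. These shares too have no counting interval. The upstream exon lies at chr3:54380412-54380492 and is 81 bases long, the length of 27 codons. The downstream exon lies at chr3:54385671-54385754 and is 84 bases long, the length of 28. The format is the same as above.
Postn upstream exon: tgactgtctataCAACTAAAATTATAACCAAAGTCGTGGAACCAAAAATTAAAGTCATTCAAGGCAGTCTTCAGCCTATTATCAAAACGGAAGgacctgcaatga
Postn downstream exon: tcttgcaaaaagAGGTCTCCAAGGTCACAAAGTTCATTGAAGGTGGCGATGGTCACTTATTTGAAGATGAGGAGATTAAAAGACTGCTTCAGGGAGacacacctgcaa

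Of 4 full-length Postn transcripts, those with the upstream exon held 34.0% in replicate 1 and 41.2% in replicate 2. Those with the downstream exon held 44.6% and 29.3%. The second quantification put the hearts in the same order for both exons, at 28.1% and 42.8% for the upstream exon and 46.3% and 34.8% for the downstream one. Postn was the 1 gene of the 10 whose leading transcript differed between hearts in the first quantification, with Postn-201 at 38.9% in replicate 1 and Postn-203 at 38.6% in replicate 2. Postn-204 held 21.7% and 27.6%. In the second quantification Postn-204 led in both hearts, at 41.9% and 32.5%. Postn-202, which holds both alternative exons, had 18.7% and 10.6% there and 1.97% and 0 in the first, so the split among the 4 is uncertain.

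The 10 genes have 56 annotated transcripts. The leading transcript was the same in both quantifications and both hearts for 6 genes, Bgn, Fmod, Lum, Ogn, Prelp and Sparcl1. Lum and Ogn have 1 transcript each, and Sparcl1-201, Fmod-201 and Prelp-201 held 98.3% ± 0.955, 98.7% ± 1.82 and 100% of their genes in the first quantification. Fmod-202 held 22.04% and 11.7% of Fmod in the second, against 2.57% and 0 in the first. Bgn-201 held 76.0% and 77.6%. The short noncoding Bgn-208 held 20.2% and 19.7% there and was at 0 in the second quantification, where Bgn-203 held 16.0% and 17.0%.

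For the other 4 genes the quantifications assigned reads differently. Sparc was led by Sparc-202 at 67.7% and 68.7% in the first quantification, with Sparc-201 at 30.4% and 30.2%. The second put Sparc-201 ahead at 56.8% and 53.8%, with Sparc-202 at 37.9% and 34.8%. Dcn-201 held 74.9% and 71.0% and Dcn-202 held 23.8% and 27.6% in the first, while the second gave both the same value, at 49.6% in replicate 1 and 49.8% in replicate 2. Both are 1758 bases long and differ at 133 positions. Fn1 was led in the first by Fn1-208, a short coding transcript of 1350 bases, at 28.2% and 28.4%. Fn1-217 held 16.5% and 16.1%, Fn1-216 held 15.3% and 12.4%, and Fn1-203 held 11.5% and 17.3%. In the second, Fn1-208 held 4.23% and 3.61%, and the leading ones were Fn1-204, a retained intron, at 26.2% in replicate 1 and Fn1-203 at 38.7% in replicate 2. Fn1-203 also held 21.2% in replicate 1 there, and Fn1-204 25.0% in replicate 2. Gene levels moved less, from 1.07 times (Ogn) to 1.39 times (Fmod) higher in the second quantification. In that quantification the ranges of Bgn and Sparcl1 also overlapped.

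The other small leucine-rich proteoglycans were mostly low. Of 11 genes, 3 reached 1 TPM in both hearts and the list median was 0.49 TPM. The 3 highest were Podn, which encodes podocan, at 11.8 ± 0.269 TPM, Aspn (asporin) at 8.99 ± 0.552 and Ecm2 at 5.62 ± 0.325. Kera, the keratocan gene of the cornea, was the lowest, with 0 counts in both hearts, which allows up to 0.0784 and 0.0738 CPM. None of the 4 genes past the count minimum differed by 25%. Below the minimum, Omd (osteomodulin) had 47 and 19 counts.

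Several of these genes lie side by side in the genome. Dcn and Lum share a stretch of 202.8 kb on chromosome 10 with Kera and Epyc. Prelp and Fmod share 151.1 kb on chromosome 1 with Optc, and Ogn shares 119.7 kb on chromosome 13 with Ecm2, Aspn and Omd. No other protein-coding gene lies wholly inside any of these stretches. Genes that extend past an end of a stretch were not counted. Levels differed widely within them. On chromosome 10, Dcn was 7.89 and 6.85 times Lum in replicates 1 and 2, and Epyc was at 0.17 and 0.18 TPM. On chromosome 1, Optc was at 0.16 and 0.15 TPM beside Prelp at 11.30 and 10.87.

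Of 26 other matricellular genes, 17 reached 1 TPM in both hearts, with a list median of 2.65 TPM. The highest were Ccn2, a growth factor-binding protein induced by TGF-beta, at 60.39 and 44.81 TPM, the follistatin-like gene Fstl1 at 37.7 ± 0.827 and Ccn1 at 23.1 ± 5.41. Tnn and Ccn6 were the lowest, at 0.01 TPM each. Of the 19 past the minimum, 4 were higher in replicate 2 by the 25% rule and 5 were lower (median ratio -0.08). Of all genes, 6.63% were higher and 8.43% lower. Ccn2 had a ratio of -0.46 and Ccn1 of 0.44, and no gene past the minimum was 2-fold apart. Below it, Spock3 had 12 and 6 counts and Ccn6 had 0 and 1.

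**Figure D5:**
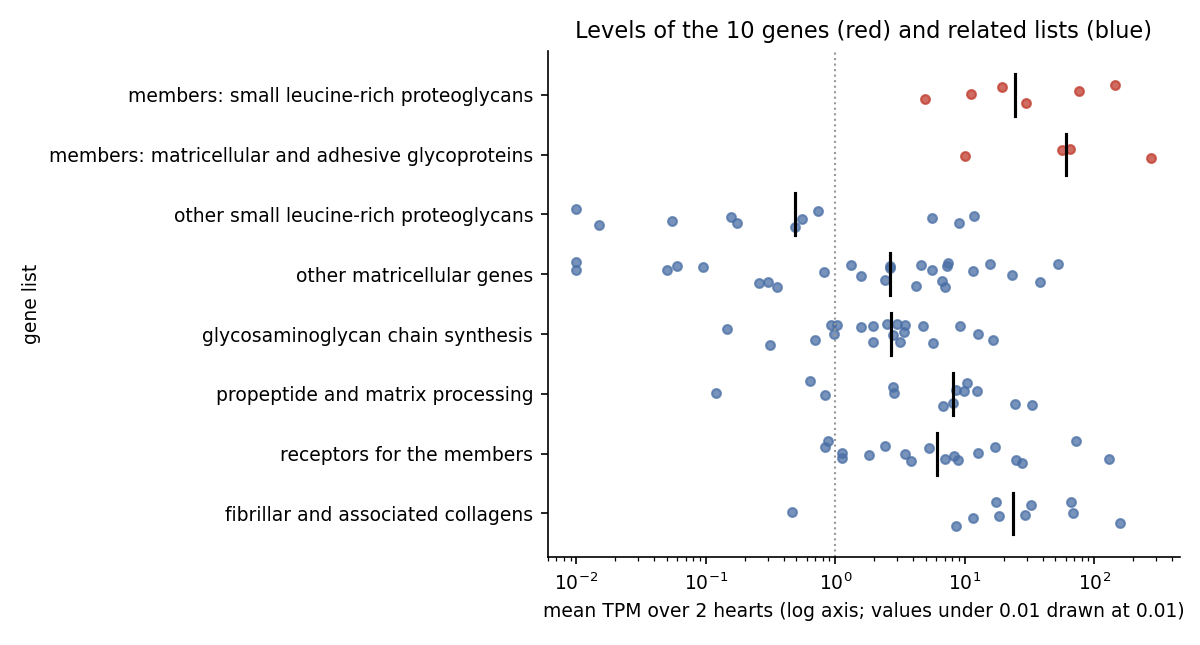
Mean TPM over both hearts of each gene on a log axis, for the 10 genes in their groups (red) and for related lists (blue), with list medians as black bars and a dotted line at 1 TPM. The medians are 24.5 TPM for the 6 proteoglycans, 60.6 for the 4 glycoproteins, 0.49 for the other proteoglycans of the family and 23.8 for the collagens.

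The enzymes that build and modify the sulfated chains were detected at low levels. Of 20 genes, 15 reached 1 TPM in both hearts (median 2.67 TPM). The highest were Fam20b, the xylose kinase of the chain linker, at 16.5 ± 1.03 TPM, B3gat3, which adds the last sugar of the linker, at 12.6 ± 0.721 and Chpf, a chondroitin polymerising factor, at 9.10 ± 0.467. Chsy3, a chondroitin synthase, was the lowest at 0.145 TPM, with 22 and 12 counts. Of the 19 past the minimum, 2 were lower in replicate 2 by the 25% rule and 0 were higher (median ratio 0.04). Among all genes, 8.43% were lower and 6.63% higher.

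Of 13 genes for procollagen and matrix processing, 10 reached 1 TPM in both hearts (median 8.06 TPM). They were led by Mmp2, a gelatinase, at 33.0 ± 1.01, Pcolce, the enhancer of procollagen C-proteinase, at 24.4 ± 0.629 and the lysyl oxidase relative Loxl1 at 12.5 ± 0.841. Bmp1, a proteinase that matures the biglycan precursor and procollagens, measured 8.06 ± 0.424 TPM. Tll2 was the lowest at 0.12 TPM, with 8 and 25 counts. Of the 12 past the minimum, the 25% rule found 2 lower in replicate 2 and 0 higher (median -0.06). It found 8.43% of all genes lower and 6.63% higher.

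Receptors were led by Itgb1, the integrin beta 1 subunit that most fibronectin and collagen receptors share, at 131 ± 8.85 TPM. The lipoprotein receptor Vldlr followed at 72.2 ± 6.72 and the integrin subunit Itgb5 at 27.6 ± 1.70. Of 18 genes, 15 reached 1 TPM in both hearts (median 6.14 TPM), and Tlr2 was the lowest at 0.83 TPM. Itga5, whose product pairs with that of Itgb1 as the main fibronectin receptor, measured 16.97 and 17.20 TPM, with a ratio of 0.03 beside the -1.41 of Fn1. Itga4, the partner for the Leu-Asp-Val motif, measured 1.38 and 0.87 TPM, with a ratio of -0.50. Among the other integrin subunits listed, Itgb3 (-0.75), Itga8 (-0.33) and Itgb5 (-0.11) had ratios below 0. Those of Itgav (0.07) and Itgb1 (0.06) were above 0. Of the 18 genes, 5 were lower in replicate 2 by the same rule and 0 were higher (median -0.17). Over all genes, 8.43% were lower and 6.63% higher.

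Of 10 collagen genes, 9 reached 1 TPM in both hearts, with a median of 23.8 TPM. The fibrillar collagens Col3a1 (159 ± 10.6 TPM), Col1a1 (69.0 ± 5.50) and Col1a2 (65.9 ± 4.25) were the highest, and Col12a1, at 0.46, was the lowest. Their ratios were -0.22, -0.20 and -0.23, and those of the fibrillar Col5a1 and Col5a2 were 0.04 and -0.15. The 3 collagen VI genes, at 18.4 to 32.7 TPM, had ratios between -0.04 and 0.04. Of the 10 collagen genes, 2 were lower in replicate 2 by the same rule and 0 were higher (median -0.18). The shares of all genes were 8.43% and 6.63%.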

How the data were processed

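Total RNA of 2 mouse hearts was sequenced, 1 library per animal. Estimated counts per gene, not whole because shared reads are divided, and TPM (as maximum likelihood and posterior mean values) were deposited by the authors. The first transcript table, as deposited, gives each transcript's percent of its gene beside counts and TPM, and another transcript table was made directly from reads. Assembly mm10 and annotation GENCODE M21 are named in text files the authors deposited. The column names are those of RSEM (the first quantification) and kallisto (the second), with tools and versions not given in the sources used here.

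Counts were rounded and scaled by TMM (edgeR 4.0.16, R 4.3.3). Genes with a mean of at least 1 CPM were compared, and 26248 transfer RNA rows (3.0 and 1.85 counts) and spike-ins stayed out of library sizes. A count of 0 allows 3 counts. Intervals (exact binomial, 95%) and this floor hold for counting error alone, as no molecular identifiers are named and several reads can come from 1 molecule. The labels name 2 animals but give both the same donor identifier. Alternatives were DESeq2 1.42.0 size factors, upper quartile, total counts, spike-ins, no filter, TPM + 0.1 and TPM + 1 (log2 scale), posterior mean TPM, the second quantification and leaving out a heart. The comparison of alternative exons between quantifications was added after the data were seen. Steps were tested on simulated data. Python 3.11.15, pandas 2.3.3 and matplotlib 3.10.9 were used.

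Named are the 10 genes, the 3 highest, the lowest and any 2-fold different gene of each related list, and each gene's leading transcripts and those at 10% or more in both hearts. Genes named beside these were chosen after their values were seen. They are Itga4, Itga5, Itga8, Itgav, Itgb3, Bmp1, Epyc, Optc, Col5a1, Col5a2, the collagen VI genes, Cfd, Car3 and single markers. The 10 genes and all lists were chosen with earlier results of these data known. Likeness of pattern between genes was not computed, since 2 samples give only a correlation of 1 or -1.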

Additional observations from a re-analysis of the deposited data

How the results depend on the processing

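The median level of the 10 genes was 42.7 TPM and ranged from 31.0 to 45.5 when either heart was left out. In the second quantification that median was 49.0 TPM. Their median log2 ratio of -0.01 became -0.15 with spike-in scaling, under which all genes had a median of -0.13, and stayed between -0.01 and 0.05 under the other alternatives. The count of 2 genes that differed by 25% or more fell to 1 with total counts, where Fmod drops out, and was 3 with spike-ins, where Dcn enters. With TPM + 1 the Fmod ratio, at -0.29, was also short of 25%. Of all 12913 genes compared, 1945 differed by 25% in either direction. The count was 2050 with total counts, 2686 with spike-ins and 1414 with TPM + 1. Without the filter it was 10535 of 24638 genes. Among the 10 genes, no ratio past 25% changed sign. The Fn1 ratio ranged from -1.54 to -1.33. No paired analysis was possible because the hearts form 1 group. Depth limits Fmod most, at 533 and 459 counts.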
